A study of Mus musculus with 12 samples.

Results

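The 10 genes described here are part of the myogenic programme and were followed in muscle stem cells (MuSCs) and myoblasts of the mouse: the myogenic regulatory factors Myf5, Myod1, Myog and Myf6, the related bHLH factor Msc, the Mef2 genes Mef2a, Mef2c and Mef2d, and the fusogens Mymk and Mymx. They were taken by gene symbol from the 2 deposited expression tables, in which all 10 were listed among 16503 genes (myoblast table) and 16169 genes (genotype table). The 12 libraries were bulk RNA-seq libraries of 1000 cells each, 3 per group. In the first table, fresh MuSCs of WT mice (replicates 04 to 06) were set against myoblasts that the same 3 mice gave after 3 days of culture. In the second, MuSCs sorted from 3 WT mice were set against MuSCs from 3 Nedd4L-cKO mice (replicates 01 to 03 of each), all of them males of 5 to 6 weeks. In the Nedd4L-cKO mice loxP sites flank exon 15 of Nedd4l, an exon of the catalytic region of this E3 ubiquitin ligase, and Cre expressed from the Pax7 locus removes it in Pax7-expressing cells and their descendants, while the gene is still transcribed. The controls are labelled WT, and whether they carried floxed alleles or Cre, as well as the age of the mice of the first table, is not given in the sources used here. Each table was normalized on its own, so no level was tested across them.

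MuSCs lie quiescent under the basal lamina of the muscle fibre and express the paired-box factor Pax7. When they activate, myogenic regulatory factors, which bind E-box sequences as dimers with E proteins, carry them through commitment (Myf5, Myod1) into differentiation (Myog, Myf6), and Mef2 proteins act with them on muscle genes. Differentiating cells then fuse into myotubes by means of Myomaker (Mymk) and Myomixer (Mymx), the muscle-specific membrane proteins of fusion.

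The genes are placed here on the GRCm39 build, with the GENCODE M39 annotation. Myf5 (ENSMUSG00000000435; chr10:107318769-107321995) and Myf6 (ENSMUSG00000035923; chr10:107328712-107330656) are neighbours on the minus strand, 6716 bases apart with 0 protein-coding genes between them. Myod1 (ENSMUSG00000009471) lies at chr7:46025870-46028526, Myog (ENSMUSG00000026459) at chr1:134217707-134220287, Msc (ENSMUSG00000025930) at chr1:14823503-14826266, Mymk (ENSMUSG00000009214) at chr2:26951627-26962228 and Mymx (ENSMUSG00000079471) at chr17:45911239-45913028. The Mef2 genes are far longer, with spans of 141696 bases for Mef2a (ENSMUSG00000030557), 163492 for Mef2c (ENSMUSG00000005583) and 30214 for Mef2d (ENSMUSG00000001419). Their transcripts are also longer, with 6353, 8915 and 7297 bases of exons against 1415 to 2188 in the other 7 genes, so levels were compared between genes only per kilobase of exons.

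The sequences before the start sites of Myod1, Myog and Mymk are shown as examples of genes that rose in culture, and that of Myf5 because it fell. Each run is the 250 bases before the start of the Ensembl canonical transcript, read from the GRCm39 genome on the gene's strand, with every match to the E-box letters CANNTG in capitals.
Myod1, chr7:46025620-46025869, plus strand: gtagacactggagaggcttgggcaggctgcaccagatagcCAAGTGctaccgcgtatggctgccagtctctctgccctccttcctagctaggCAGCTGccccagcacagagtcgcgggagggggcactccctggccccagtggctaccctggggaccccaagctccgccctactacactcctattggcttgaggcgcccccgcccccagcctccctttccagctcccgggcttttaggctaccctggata
Myog, chr1:134217457-134217706, plus strand: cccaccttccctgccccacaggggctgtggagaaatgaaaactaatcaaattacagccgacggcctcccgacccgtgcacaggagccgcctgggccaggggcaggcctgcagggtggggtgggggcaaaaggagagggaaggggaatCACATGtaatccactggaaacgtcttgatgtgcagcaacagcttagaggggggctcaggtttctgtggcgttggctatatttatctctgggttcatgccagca
Mymk, chr2:26962229-26962478, minus strand: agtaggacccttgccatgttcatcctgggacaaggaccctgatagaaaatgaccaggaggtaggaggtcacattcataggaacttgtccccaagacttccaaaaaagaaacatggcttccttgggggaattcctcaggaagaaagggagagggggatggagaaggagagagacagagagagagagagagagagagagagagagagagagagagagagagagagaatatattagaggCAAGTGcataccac
Myf5, chr10:107321996-107322245, minus strand: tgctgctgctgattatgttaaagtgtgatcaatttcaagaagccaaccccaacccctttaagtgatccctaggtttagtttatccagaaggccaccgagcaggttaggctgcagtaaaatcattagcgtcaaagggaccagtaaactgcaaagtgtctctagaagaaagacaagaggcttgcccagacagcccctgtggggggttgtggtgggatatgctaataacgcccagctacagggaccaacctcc
CANNTG reads alike on both strands. Myod1 held 2 matches (CAAGTG, first base 210 bases before the start, and CAGCTG, 158 before), Myog 1 (CACATG, 103 before) and Mymk 1 (CAAGTG, 14 before), while Mymx, whose window is not printed, held 2 (CAGGTG and CAGCTG, 241 and 227 before). The other 6 genes held 0 in this window: Myf6, Mef2a, Mef2c and Mef2d, which rose in culture, and Myf5 and Msc, which fell. Of 15708 windows of the same kind, 61.7% held CANNTG and 11.7% held CAGCTG, which is a subset of it. The MEF2 consensus, searched on both strands, matched in the window of Myf6 alone among the 10 genes, against 2.30% of all windows. Runs that depart from that consensus, such as ctatatttat in the printed Myog window, were not counted. A window without a match may therefore still hold a MEF2 site. The matches are descriptions of sequence, and no binding was measured here.

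Expression is given in RPM, the deposited normalized counts per 1000000 of the mean of a table's 6 library totals. The totals of normalized counts were 33189802 to 37595659 in the first table and 40323468 to 50687122 in the second. As the values are normalized, the read depth behind them is unknown. The targeted gene, Nedd4l, was lower in every library labelled Nedd4L-cKO (30.2, 36.3 and 22.5 RPM) than in every WT library (70.2, 96.4 and 66.7 RPM), by a log2 fold change of -1.37 with an adjusted limma p of 0.0467. All 12 MuSC markers looked for were listed, and they summed to 6453 to 9406 RPM in fresh MuSCs, 793 to 904 in myoblasts, 5981 to 9856 in WT MuSCs and 5011 to 7882 in Nedd4L-cKO MuSCs. Blood markers (5 or 6 of 9 listed) summed to 2.24 to 39.2 RPM over the 12 libraries, endothelial markers (5 of 8) to 11.8 to 107 RPM, and Ptprc, the leukocyte antigen CD45 against which the cells were sorted, stayed under 1 RPM in every group.

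**Figure D1:**
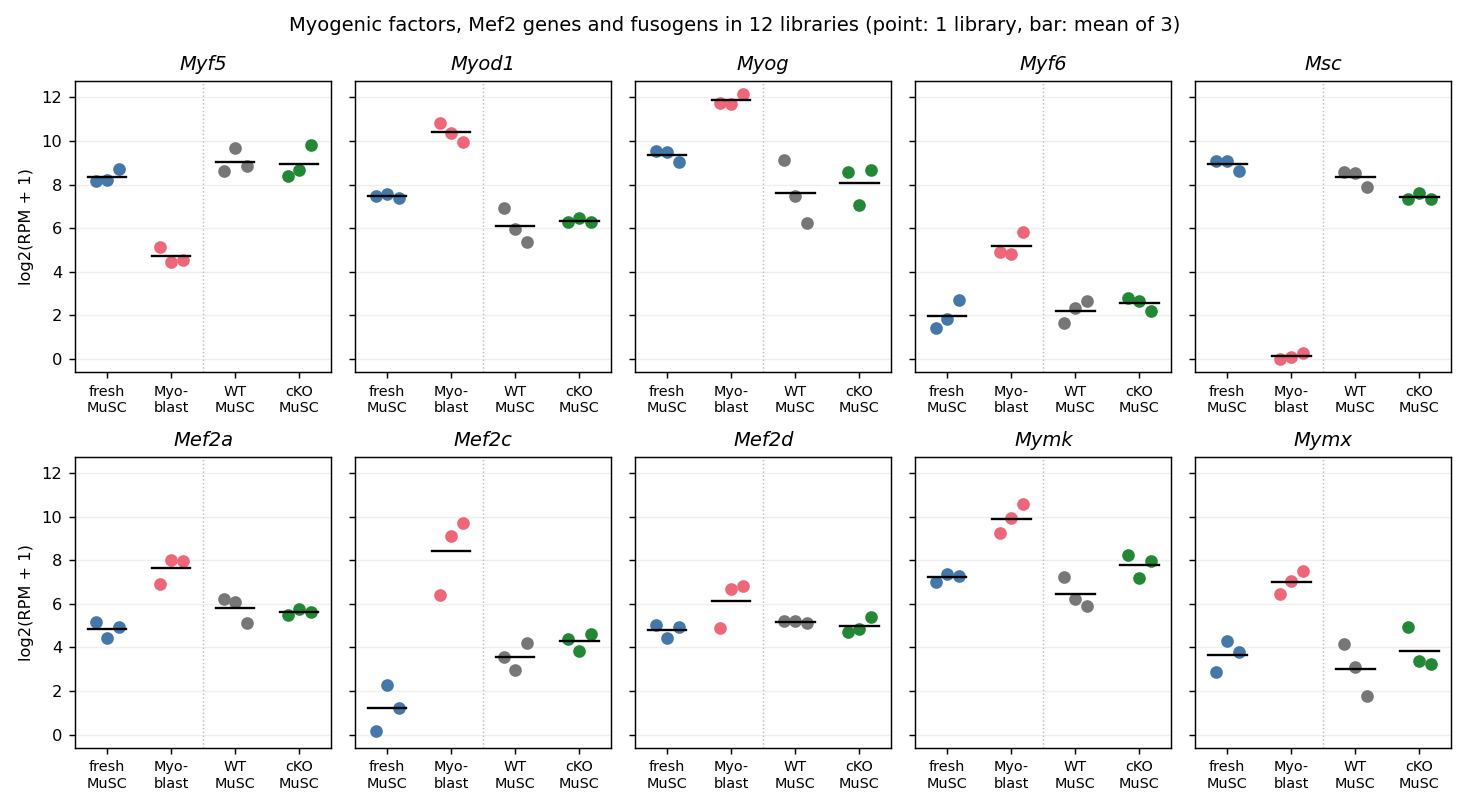
Expression of each of the 10 genes in all 12 libraries, as log2(RPM + 1), with points for libraries (replicates in number order), bars for means of 3, and cKO for Nedd4L-cKO. The dotted line parts the tables, which were normalized separately. The myoblast points of Myf5 and Msc lie below all fresh MuSC points, and those of the other genes lie above them except in Mef2d, where 1 myoblast library lies among the fresh MuSCs.

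The comparison of myoblasts with fresh MuSCs asks how the programme shifts as stem cells leave their niche and grow. Fold changes are on the log2(RPM + 1) scale, which understates the change of low genes, and a gene was called at a limma p of at most 0.05 after adjustment over the 15345 genes tested. Each of the 10 genes passed the filter on low values, Mef2c through the myoblasts and Msc through the fresh MuSCs. All 10 were called, where 42.8% of all genes were: 8 were higher in myoblasts (22.2% of all genes) and 2 were lower (20.6%). The groups did not overlap in 9 of them, against 55.2% of all genes. The median log2 fold change over the 10 was 2.74 and the median absolute one 3.06, against 0.039 and 0.676 over all genes. In these bulk libraries more cells with a transcript and more transcript per cell cannot be told apart, and culture cannot be told apart from the days spent in it.

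Per length, Myog and Myod1 were the leading factors of the myoblasts. Myog, which encodes the differentiation factor myogenin, was at 732, 720.0 and 524 RPM in fresh MuSCs 04, 05 and 06 and at 3374, 3344 and 4521 in the myoblasts of the same mice. Every myoblast library thus lay far above every fresh one. The mean rose from 659 ± 117 to 3747 ± 671 RPM (SD, n = 3 each), a log2 fold change of 2.51 (SE 0.20, adjusted p = 3.01e-05). Per kilobase of exons, Myog stood at rank 7 of 16437 genes in myoblasts and already at rank 99 in fresh MuSCs.

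Myod1, the factor of commitment to the muscle lineage, was at 177, 188 and 167 RPM in the fresh libraries and at 1800.5, 1336 and 1000.0 RPM in the myoblasts. The fresh values were within 1.13-fold of each other, and among the myoblasts the library of mouse 06 was the lowest for Myod1 and the highest for Myog. Its log2 fold change was 2.91 (SE 0.22, adjusted p = 2.43e-05), and its rank per length moved from 737 to 39. Myf6 (Mrf4), a late factor that is high in mature fibres, was low in fresh MuSCs at 1.65, 2.55 and 5.41 RPM and reached 28.9, 27.2 and 55.7 RPM in myoblasts. The groups lay apart, with a log2 fold change of 3.21 (SE 0.43, adjusted p = 0.000451), though Myf6 remained the lowest of the 4 per length in fresh MuSCs and under Myod1 and Myog in myoblasts.

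Myf5 went the other way. This gene, a factor of commitment like Myod1, was at 282, 292 and 414 RPM in fresh MuSCs and at 34.5, 20.5 and 22.4 RPM in myoblasts. The lowest fresh library was thus above the highest myoblast library by a wide margin. The mean fell from 329 ± 73.2 to 25.8 ± 7.61 RPM, 12.8-fold, with a log2 fold change of -3.64 (SE 0.26, adjusted p = 1.49e-05). Its neighbour Myf6 rose in the same libraries.

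Msc, which encodes musculin (MyoR), a bHLH repressor that can occupy E-boxes in place of the myogenic factors, showed the largest change of the 10. It was at 547, 538 and 398 RPM in fresh MuSCs. In myoblasts it was listed at 0 in replicate 04 and at 0.0524 and 0.220 RPM in the others, so it was close to absent from all 3. The log2 fold change of -8.82 (SE 0.26, adjusted p = 2.73e-07) placed it at rank 6 among the decreases of the 15345 genes. With a pseudocount of 0.1 RPM it was -11.5.

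The 3 Mef2 genes, which encode MADS-box partners of the myogenic factors, ranked between 6579 and 13314 of 16437 genes per length in fresh MuSCs and rose to different extents. Mef2c was at 0.113, 3.88 and 1.35 RPM in the fresh libraries and at 82.7, 550.0 and 846 RPM in myoblasts. Its myoblast values spread 10.2-fold, with replicate 04 the lowest, and no myoblast library came near a fresh one. Its log2 fold change of 7.18 (SE 0.83, adjusted p = 0.000216) was the 18th largest increase of all genes, and was 8.19 without Myoblast replicate 04, 6.51 without Myoblast replicate 06 and 8.30 with a pseudocount of 0.1.
Mef2a was at 34.4, 20.4 and 29.8 RPM in fresh MuSCs and at 117, 256 and 249 RPM in myoblasts. These groups did not overlap, and the log2 fold change was 2.78 (SE 0.33, adjusted p = 0.000267). Mef2d was at 31.7, 20.3 and 29.4 RPM before culture and at 28.6, 99.9 and 112 RPM after it. Myoblast replicate 04 lay within the fresh range. The call of Mef2d (log2 fold change 1.34, SE 0.48, adjusted p = 0.0488) was lost with the mouse as a replicate block (adjusted p = 0.0583), and without Myoblast replicate 04 its log2 fold change was 1.95 (adjusted p = 0.00055).

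Both fusogens were higher in myoblasts. Mymk was at 127, 162 and 156 RPM in fresh MuSCs and at 607, 967 and 1522 RPM in myoblasts. All myoblast libraries were above all fresh ones, and the rank of Mymk per length moved from 730 to 49. Its log2 fold change was 2.70 (SE 0.31, adjusted p = 0.000196). Mymx was at 6.37, 18.8 and 12.8 RPM in fresh MuSCs and at 87.1, 131 and 179 RPM in myoblasts. The groups lay apart here too, with a log2 fold change of 3.34 (SE 0.40, adjusted p = 0.000247).

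The myoblast libraries were not alike among themselves. Replicate 04 was the lowest and replicate 06 the highest for Mef2c, Mef2d, Mymk and Mymx, whereas for Myod1 replicate 06 was the lowest and replicate 04 the highest. The mature myofiber markers (14 of 14 listed, 4 of them also in the list of differentiation genes below) summed to 10418, 14256 and 22413 RPM in replicates 04, 05 and 06, against 532 to 772 RPM in fresh MuSCs. Markers of fibro-adipogenic progenitors (8 of 8 listed, none at 0) summed to 2610 to 3085 RPM in fresh MuSCs and 259.8 to 374 in myoblasts, those of pericytes (7 of 7) to 1097 to 1405 and 1656 to 2415, and those of tenocytes (3 of 6) to 10.9 to 11.8 and 23.4 to 107 RPM. Of the 7 pericyte markers tested 1 was called, Kcnj8, which was lower in myoblasts (3.16 ± 0.688 to 0.0550 ± 0.0218 RPM). Kcnj8 passed the filter on low values through the fresh MuSCs. Of the 2 tenocyte markers tested 1 was called, Scx, which was higher (9.23 ± 0.613 to 67.4 ± 42.7 RPM). The sort gate of the fresh MuSCs (ITGA7+, CD31-, CD45-, CD11b-, SCA1-) selects against fibro-adipogenic progenitors, which carry SCA1. Of the 7 fibro-adipogenic progenitor markers tested 5 were called, where 42.8% of all genes were. From fresh MuSCs to myoblasts, Ly6a, the gene of SCA1 (0.152 ± 0.240 to 1.94 ± 0.528 RPM), and Smoc2 (0.00752 ± 0.0130 to 13.6 ± 6.21 RPM) rose. The other 3 fell: Col3a1 (1644 ± 118 to 159 ± 36.5 RPM), Gsn (1111 ± 186 to 157 ± 23.3 RPM) and Dcn (23.9 ± 20.5 to 0.311 ± 0.353 RPM). Ly6a and Smoc2, near 0 in fresh MuSCs, passed the filter on low values through the myoblasts. The part of the other cell types in the values above was not tested.

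**Figure D2:**
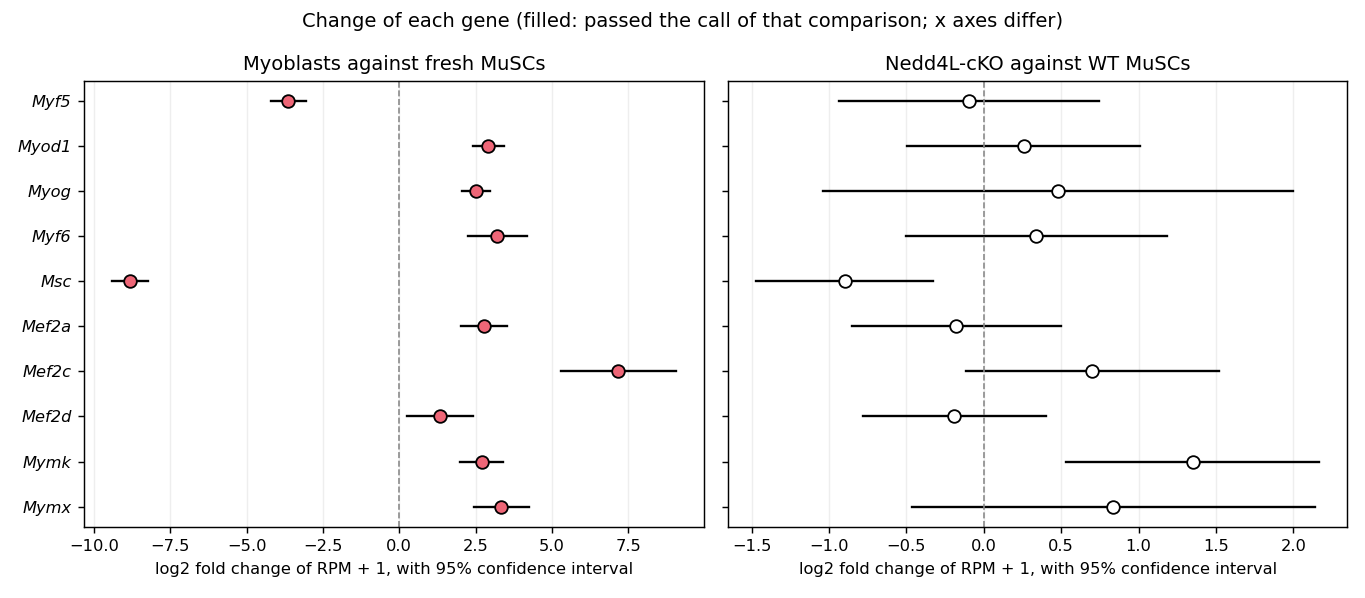
Log2 fold change of RPM + 1 for each gene (points) with its 95% confidence interval (lines), for myoblasts against fresh MuSCs (left) and Nedd4L-cKO against WT MuSCs (right), on x axes of different range. All 10 points on the left are filled, as called, from -8.82 for Msc to 7.18 for Mef2c, and none on the right is, where 8 of the 10 intervals include 0.

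Set against each other per exonic length, the 4 myogenic regulatory factors shifted in their make-up. In fresh MuSCs, Myog took 62.8% ± 7.36 of their summed RPM per kb, Myf5 23.3% ± 6.90, Myod1 13.6% ± 0.436 and Myf6 0.339% ± 0.232 (SD, n = 3). In myoblasts Myog took 76.0% ± 7.30, Myod1 22.8% ± 7.45, Myf6 0.798% ± 0.267 and Myf5 0.384% ± 0.115. Myf5 thus went from the second place to the last, and Myod1 from the third to the second. None of the 4 shares overlapped between the groups, each with p = 0.1 in an exact two-sided permutation test, the smallest p that 3 libraries against 3 allow (0.225 after adjustment over the 18 share tests of this kind). That test exchanges libraries freely and leaves out their pairing by mouse. The 4 shares of a library also depend on each other, as they are parts of 1 sum.
Among the Mef2 genes, Mef2a and Mef2d shared the fresh MuSC total at 52.8% ± 2.72 and 44.3% ± 1.08, with 2.87% ± 3.47 for Mef2c. That last share was 0.922% without fresh MuSC replicate 05 and 4.24% without replicate 04. In myoblasts Mef2c took 29.3, 53.3 and 63.5% in replicates 04, 05 and 06, Mef2a 39.8% ± 16.6 and Mef2d 11.5% ± 1.08. The shares of Mef2c and Mef2d did not overlap between the groups (exact p = 0.1 each, 0.225 adjusted), and those of Mef2a did (exact p = 0.4, 0.675 adjusted). Mymk made up 88.6 to 97.1% of the summed RPM per kb of the fusogens in all 12 libraries.

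**Figure D3:**
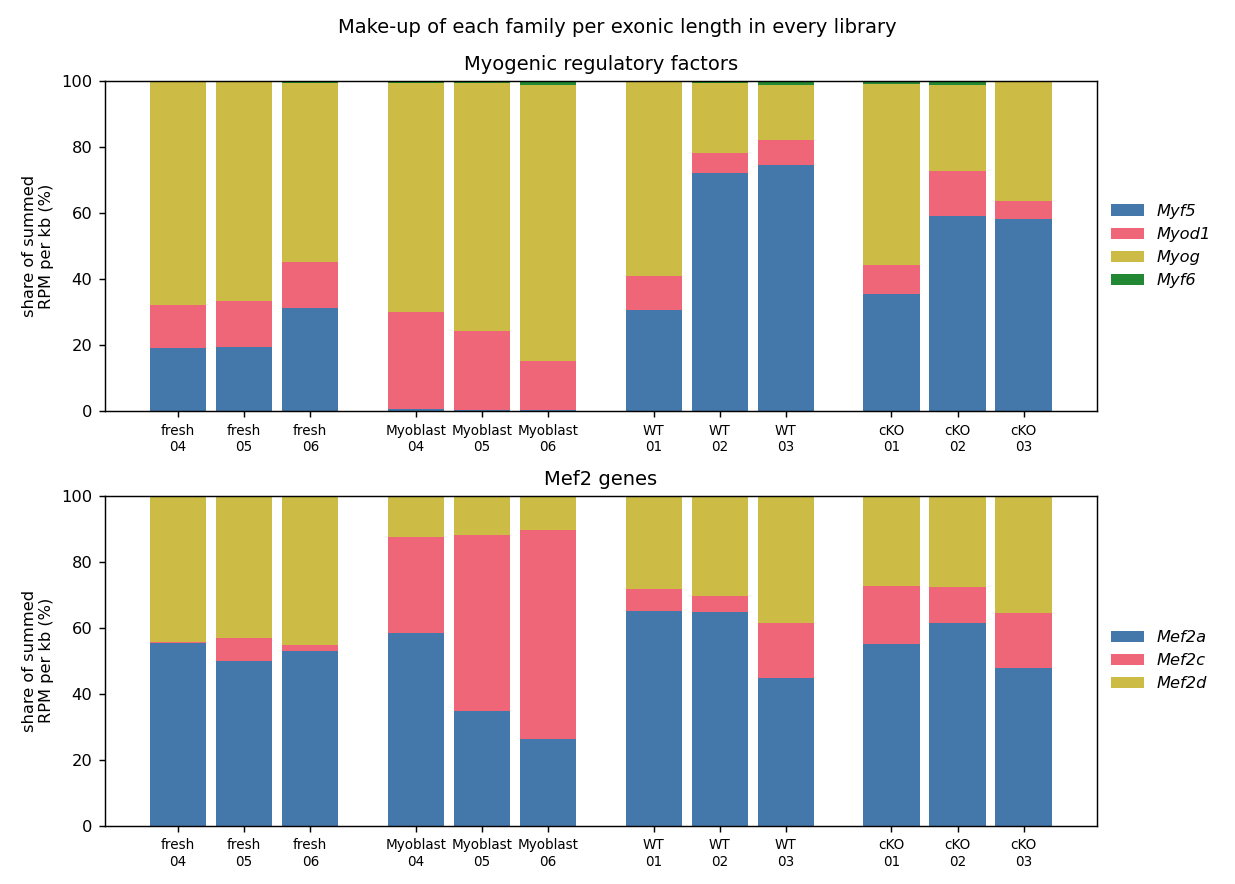
Share of each gene in the summed RPM per kb of exons of its family (y axis, percent), stacked for each library (x axis, group and replicate, cKO for Nedd4L-cKO), for the myogenic regulatory factors (top) and the Mef2 genes (bottom). Myf5 falls to under 1% in the myoblasts, and Mef2c reaches 29.3 to 63.5% there from at most 6.77% in fresh MuSCs.

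Over all 10 genes, the order of levels per kb in fresh MuSCs was Myog (435 ± 77.1), Msc (226 ± 38.1), Myf5 (158 ± 35.2), Mymk (94.5 ± 11.99), Myod1 (93.8 ± 5.68), Mymx (7.26), Mef2a (4.44), Mef2d (3.71), Myf6 (2.27) and Mef2c (0.200). The ranges of the neighbours Msc and Myf5, and of Mymk and Myod1, overlapped, as did those of the genes from Mymx to Myf6, each with the next. In myoblasts the order was Myog (2471 ± 443), Myod1 (729 ± 212), Mymk (658 ± 294), Mymx (76.0 ± 26.3), Mef2c (55.3 ± 43.2), Mef2a (32.7), Myf6 (26.3), Myf5 (12.4), Mef2d (11.0) and Msc (0.0416). There Myod1 and Mymk could not be ordered beyond their spread, nor could neighbours from Mymx to Myf6, or Myf5 and Mef2d.

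The other genes of the pathway give the setting in which these changes stood. The counts of this list and of those below are to be set against all genes, of which 42.8% were called, 22.2% higher in myoblasts and 20.6% lower. Of the bHLH partners and inhibitors, 11 of the 18 tested were called, 4 higher and 7 lower in myoblasts (median log2 fold change -0.40). The largest decreases were those of the bHLH repressor genes Bhlhe40 (log2 fold change -6.05), Heyl (-4.54) and Hey1 (-4.32), of which Heyl and Hey1 are targets of Notch. Mdfic, an inhibitor of myogenic factors, was lower as well (-3.02). Tcf3, which encodes the E proteins that pair with Myod1 and Myog, rose with a log2 fold change of 2.03 (29.8 ± 1.64 to 128 ± 34.3 RPM). The Id genes, which sequester E proteins, did not move together. Id1 rose (1.89, 38.8 ± 15.4 to 140 ± 25.5 RPM). Id3, named here after its values were seen, was at a higher level and fell (-0.88, 1380 ± 261 to 751 ± 161 RPM). Id2 and Id4 were not called.
Of the upstream and co-acting factors, 18 of 25 were called, 8 higher and 10 lower. Klf5 (log2 fold change 4.67) and Tead4 (3.42), transcription factors with roles in myoblast differentiation, were higher. Pax7 (-3.17), the acetyltransferase gene Kat2b (-3.31), Eya1 (-2.63), a transcriptional cofactor, and the homeobox gene Meis1 (-2.51) were lower.

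Of the genes that regulate Mef2 activity, 8 of 14 were called, 5 higher and 3 lower. The class IIa deacetylases, which bind Mef2 proteins and repress their targets, did not move as a group. Hdac4 fell from 207 ± 65.8 to 43.5 ± 5.82 RPM (log2 fold change -2.19, adjusted p = 0.000194). Hdac5 (1.55), Hdac7 (2.19) and Hdac9 (2.94) were higher, each at a mean of at most 40.8 RPM in myoblasts. Hdac9, at 0.132 ± 0.114 RPM in fresh MuSCs, passed the filter on low values through the myoblasts. Nfatc2, a target of calcineurin, was lower (-3.37), and Mamstr (MASTR), a co-activator of Mef2, was higher (1.42).

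Of the other genes linked to fusion, 24 of 42 were called, 14 higher and 10 lower, and their median of -0.09 was near that of all genes. The largest changes were increases: Cdh2 (N-cadherin, log2 fold change 6.84), Cav3 (caveolin 3, 6.40), Tmem182 (6.35), Dysf (dysferlin, 4.37), Jam2 (4.27) and Myof (myoferlin, 4.25). Dysf, at 0.181 ± 0.301 RPM in fresh MuSCs, passed the filter on low values through the myoblasts. Of 40 genes of differentiation, 35 were called, 34 higher and 1 lower, with a median of 5.20. Tnnc1 (9.997), Myh3 (8.66), Tnni1 (8.57), Mybph (8.15), Ttn (8.09) and Casq2 (8.05), all of the sarcomere or its calcium store, led the increases. The lower gene, named here after its values were seen, was Cdkn1c, a cell cycle inhibitor (-3.24, adjusted p = 0.0020).

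**Figure D4:**
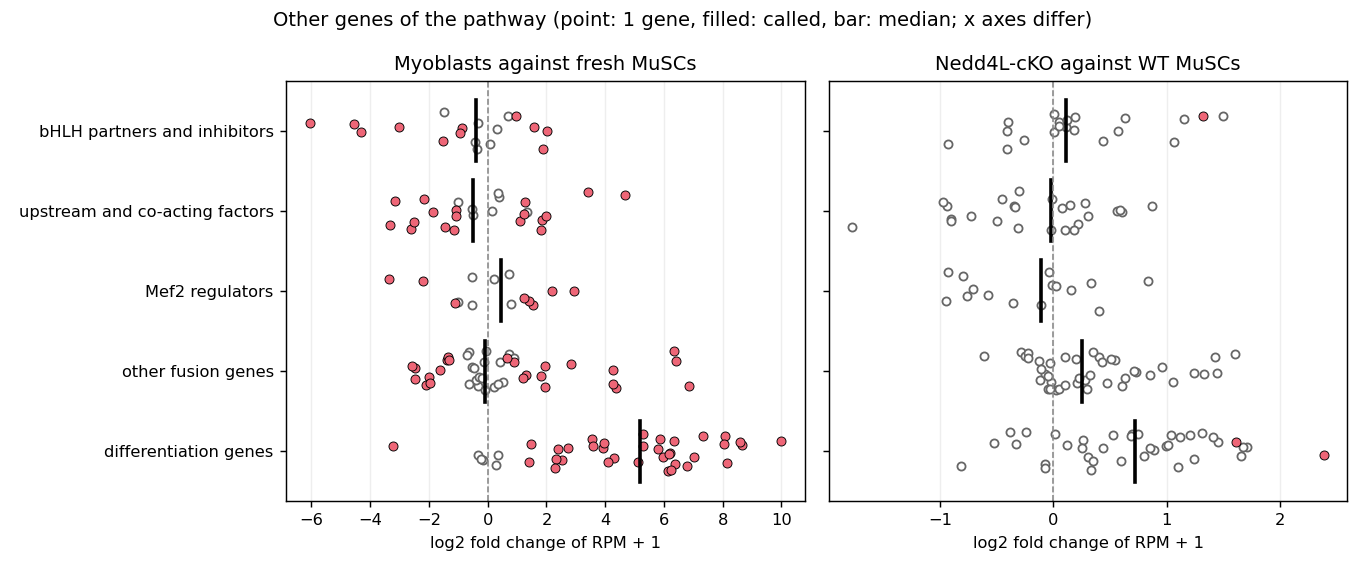
Log2 fold change of RPM + 1 (x axis) of every tested gene of the 5 lists (y axis), for myoblasts against fresh MuSCs (left) and Nedd4L-cKO against WT MuSCs (right), with points for genes, filled points for called genes and bars for the list medians. On the left the differentiation genes lie far to the right, with a median of 5.20, while the other 4 lists spread to both sides of 0. On the right 3 points are filled.

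The comparison of Nedd4L-cKO with WT MuSCs asks whether loss of the ligase alters the programme in freshly sorted cells. Here a call also needed a log2 fold change of 1 or more in size and a mean level of 5 RPM or more. All 10 genes were tested and 0 were called by limma, where 0.653% of the 15304 genes tested were, so a count of 0 in 10 is near the background. Mymk and Msc, 2 of the 10, had an unadjusted p under 0.05 (14.6% of all genes did), and the groups did not overlap in Msc alone (19.3% of all genes). The median log2 fold change over the 10 was 0.30, with 6 estimates above 0 and 4 below, and the median absolute one was 0.41, against 0.0015 and 0.308 over all genes. Misses of the threshold do not show equal levels, and the 95% intervals below say which differences these libraries allow.

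Mymk was at 151, 73.5 and 57.9 RPM in WT replicates 01, 02 and 03 and at 299.6, 146 and 249.9 RPM in Nedd4L-cKO replicates 01, 02 and 03. The highest WT library lay just above the lowest Nedd4L-cKO one. The log2 fold change was 1.35 (95% interval 0.53 to 2.17), with an unadjusted limma p of 0.00377 and an adjusted p of 0.132. With 1 library left out it ran from 1.06 (without WT replicate 03, adjusted p = 0.248) to 1.75 (without WT replicate 01, adjusted p = 0.0613), and the adjusted p was highest without WT replicate 02 (0.386).
Msc was at 384, 368 and 235 RPM in WT MuSCs and at 162, 196 and 160.0 RPM in Nedd4L-cKO MuSCs. All 3 Nedd4L-cKO libraries lay under all 3 WT libraries. The log2 fold change was -0.90 (95% interval -1.47 to -0.33), with an unadjusted p of 0.00516 and an adjusted p of 0.149.

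The summed markers of 1 other cell type differed between the genotypes without overlap. The pericyte and smooth muscle markers (7 of 7 listed) summed to 1293, 1186 and 1967 RPM in WT replicates 01, 02 and 03 and to 2182, 2558 and 3312 RPM in the Nedd4L-cKO ones, with none of the 7 at 0. By limma 0 of the 7 were called (adjusted p of 0.217 to 0.600), and 5 had an unadjusted p under 0.05. Their part in the values of Mymk and Msc was not tested. The mature myofiber markers summed to 617, 394 and 337 RPM in WT MuSCs and to 574 to 666 RPM in Nedd4L-cKO MuSCs, and the tenocyte markers (6 of 6 listed) to 187 to 1547 and 339 to 1143 RPM. Over all genes tested, 0.653% were called. Of the 14 myofiber markers 1 was called, Actn3, an alpha-actinin of fast fibres, which was lower in Nedd4L-cKO MuSCs (96.2 ± 21.7 to 33.6 ± 5.15 RPM, log2 fold change -1.47, adjusted p = 0.0327). Actn3 went against the list, whose median log2 fold change was 0.80, against 0.0015 over all genes. By limma 8 of the 14 had an unadjusted p under 0.05 (14.6% of all genes did). Of the 12 MuSC markers 2 were called, both lower: Chrdl2 (269.8 ± 57.9 to 48.4 ± 10.6 RPM, -2.46, adjusted p = 0.00296) and Cd34 (286 ± 55.9 to 93.3 ± 27.7 RPM, -1.64, adjusted p = 0.0293). The median over the 12 was -0.65. Vcam1 (0.51) and Chodl (0.26), which were not called, had estimates above 0.

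Myog varied more within WT MuSCs than between genotypes. It was at 551, 177 and 73.9 RPM in WT replicates 01, 02 and 03, a 7.46-fold range, and at 374, 132 and 399.7 RPM in Nedd4L-cKO replicates 01, 02 and 03. The groups overlapped almost fully. The log2 fold change was 0.48 (SE 0.67, 95% interval -1.04 to 2.00, adjusted p = 0.790), and it was 1.23 without WT replicate 01 and -0.21 without WT replicate 03.
Myod1 was at 119, 61.6 and 40.5 RPM in WT MuSCs and at 76.8, 86.2 and 77.2 RPM in Nedd4L-cKO MuSCs. The narrow Nedd4L-cKO range lay inside the WT range, and the log2 fold change was 0.26 (95% interval -0.50 to 1.01, adjusted p = 0.778). Mymx was at 16.6, 7.65 and 2.45 RPM in WT and at 29.7, 9.35 and 8.41 RPM in Nedd4L-cKO MuSCs, with a log2 fold change of 0.84 (95% interval -0.46 to 2.14, adjusted p = 0.553) that ran from 0.22 without WT replicate 03 to 1.40 without WT replicate 01. In WT MuSCs, replicate 01 held the highest level of Myod1, Myog, Mymk and Mymx and replicate 03 the lowest, and so they did of the summed mature myofiber markers.

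Myf5 was at 395, 823 and 454 RPM in WT MuSCs and at 332, 409.7 and 889 RPM in Nedd4L-cKO MuSCs, with overlapping groups and a log2 fold change of -0.10 (95% interval -0.94 to 0.75). Myf6 stayed at 2.11 to 5.34 RPM in WT and 3.58 to 5.94 RPM in Nedd4L-cKO MuSCs (0.34, interval -0.51 to 1.19). Among the Mef2 genes, Mef2c was at 10.8, 6.75 and 17.4 RPM in WT and at 19.9, 13.0 and 23.6 RPM in Nedd4L-cKO MuSCs (0.70, interval -0.11 to 1.52, adjusted p = 0.416). Mef2a (-0.18, interval -0.85 to 0.50) and Mef2d (-0.19, interval -0.78 to 0.40) overlapped between the genotypes.

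Per length, Myf5 and Myog were the leading factors in both genotypes. In WT MuSCs Myf5 took 59.2% ± 24.7 and Myog 32.3% ± 23.1 of the summed RPM per kb of the 4 factors, and in Nedd4L-cKO MuSCs they took 50.8% ± 13.4 and 38.9% ± 14.5 (SD, n = 3 each). The lead changed within each genotype: Myog led in replicate 01 of either, with 58.9% in WT and 54.7% in Nedd4L-cKO, and Myf5 led in the other libraries. The shares of the 4 factors and the 3 Mef2 genes overlapped between the genotypes (exact permutation p of 0.2 to 0.9, 0.4 to 0.9 adjusted).
The order over all 10 genes was Myf5 (268 ± 111 RPM per kb), Myog (176 ± 165), Msc (150 ± 37.6), Mymk (60.1 ± 31.9) and Myod1 (38.9 ± 21.3) in WT MuSCs, with the other 5 at 9.10 or less, and Myf5 (261 ± 145), Myog (199 ± 97.4), Mymk (148 ± 50.1), Msc (78.9 ± 9.33) and Myod1 (42.3 ± 2.82) in Nedd4L-cKO MuSCs, with the other 5 at 9.07 or less. Msc stood before Mymk, with ranges apart, in WT MuSCs, and Mymk before Msc, with ranges apart, in Nedd4L-cKO MuSCs. This difference was not tested.

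In the lists around them, Id2 was the 1 gene called of 20 bHLH partners and inhibitors, where 0.653% of all genes were called. Id2, an inhibitor of E proteins, was at 471 ± 79.7 RPM in WT and 1189 ± 297 RPM in Nedd4L-cKO MuSCs (log2 fold change 1.32, adjusted p = 0.0467). Of 38 differentiation genes 2 were called, both higher in Nedd4L-cKO MuSCs: Actc1, the cardiac alpha-actin that immature muscle uses (120.2 ± 102 to 521 ± 152 RPM, log2 fold change 2.39, adjusted p = 0.0467), and Myl1, a myosin light chain (35.0 ± 8.55 to 109.7 ± 31.3 RPM, 1.61, adjusted p = 0.0325). The median over the 38 was 0.72, and 18 of them had an unadjusted p under 0.05 (14.6% of all genes did). By limma, 0 of 25 upstream factors, 0 of 15 Mef2 regulators and 0 of 42 other fusion genes were called, with medians of -0.02, -0.11 and 0.26, and 6, 6 and 8 of them had an unadjusted p under 0.05.

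The genes whose pattern over the 6 libraries of a table was most like that of a member were ranked by Pearson r of log2(RPM + 1). In the myoblast table Eif4h, Hpcal1 and Cthrc1 were nearest to Myod1 and Ube2g2, Cd36 and Tmem38b to Mymk, all with r of 0.998 or more. There 879 and 574 of 10740 genes reached an r of 0.95. In the genotype table Slk (0.998), Rspry1 (0.991) and Aup1 (0.983) were nearest to Myod1, and Spc24 (0.995), Tent4a (0.992) and Gamt (0.989) to Mymk, with 11 and 34 of 10048 genes at 0.95 or above. These values rest on 6 libraries and are descriptions.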

How the data were processed

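RNA-seq libraries of 1000 cells (SMART-Seq HT, Nextera XT) were quantified by the authors with Kallisto 0.46.1 on the GENCODE M28 basic annotation, summed per gene with tximport and normalized with DESeq2, separately for each table. The deposited values used here are these normalized counts, a signal and not raw counts. Values under 20 were set against whole multiples of each library's best step. Over the 12 libraries, 23.8 to 62.2% of them lay within 0.02 of a step of such a multiple. Whole reads were not recovered for the rest of them, and higher values were not checked. Read depth is unknown and no count model was used. The p-values, fold changes and RPM columns that the authors deposited were not used.

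RPM was computed as described in the report. Genes reaching 10 normalized counts in 3 or more libraries were tested with limma 3.58.1 (trend and robust moderation, statmod 1.5.0, R 4.3.3) on log2(RPM + 1), within each table, with Benjamini-Hochberg adjustment over all genes tested; tables and figures were made with Python 3.11.15. Fits were tested on simulated data. Shares were compared by exact two-sided permutation tests that exchanged libraries freely, without pairing by mouse. Exonic lengths, coordinates and sequences came from GENCODE M39 and the GRCm39 genome (16437 of 16503 and 16104 of 16169 genes had a length). RefSeq promoters of the table used here matched 5 of the 10 symbols and were not printed.

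Fresh MuSC and Myoblast libraries of 1 number came from 1 mouse, as the series' design states. Their deviations from the group means correlated at -0.0314, -0.00502 and 0.0180 for replicates 04, 05 and 06. The WT and Nedd4L-cKO libraries came from 3 mice each.

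All 10 genes were named, up to 6 called genes per list with the largest absolute fold change, the 3 genes most alike to Myod1 and to Mymk, and Nedd4l. The 10 genes, the lists and the tests were chosen with earlier results of these data known.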

Additional observations from a re-analysis of the deposited data

How the results depend on the processing

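In the myoblast comparison 10 of the 10 genes were called with median-of-ratios factors, with TMM factors, with each library scaled to its own total (with or without mitochondrial genes), under an added fold threshold and without Myoblast replicate 04. It was 9 with a pseudocount of 0.1 RPM, without the filter, without trend and robust moderation, with the replicate block and without any 1 of the other 5 libraries, the lost gene being Mef2d each time (log2 fold change 0.98 to 1.95 and adjusted p 0.00055 to 0.167 over its 15 alternatives). It was 8 with at least 10 normalized counts required in every library, since Mef2c and Msc were then not tested. The other 9 genes kept their call wherever they were tested. The cause of the changes of Mef2d was not tested.

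In the genotype comparison 0 of the 10 genes were called under every alternative. With 1 library left out the sign of the log2 fold change turned for Myf5 (-0.52 to 0.22), Myod1 (-0.10 to 0.67), Myog (-0.21 to 1.23) and Mef2a (-0.52 to 0.033). Adjusted p ranged over the alternatives from 0.0613 to 0.386 for Mymk and from 0.0985 to 0.479 for Msc. The replicate block, in which WT and Nedd4L-cKO mice share only a number (deviations correlated at 0.0192, -0.0232 and -0.181), gave 62 calls over all genes against 100 without it, and 0 among the 10 genes. In the myoblast comparison the block gave 6078 calls over all genes against 6566 without it, and among the 10 genes it changed the call of Mef2d alone. Own-total scaling moved the median of all genes by 0.10 in the myoblast comparison and gave 49 higher and 38 lower calls between the genotypes, against 69 and 31.

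Of the shares per length, 8 of 72 moved by more than 1 SD under another length. With the longest transcript, Mef2a was at 49.7% and Mef2d at 47.2% in fresh MuSCs. Without division by length, fresh MuSCs gave 15.2% for Myod1, 49.0% for Mef2a and 47.3% for Mef2d, Nedd4L-cKO MuSCs 19.0% for Mef2c, and myoblasts 88.3% for Mymk and 11.7% for Mymx. With 3 libraries a group and depth unknown, low levels such as that of Msc in myoblasts carry no limit of detection here.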

Other observations

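The MuSCs of the first table (fresh MuSC) and the WT MuSCs of the second are both freshly sorted WT cells, but the tables were normalized separately and no test was run between them. Mean levels side by side were 178 ± 10.7 and 73.5 ± 40.4 RPM for Myod1, 659 ± 117 and 267 ± 251 RPM for Myog, 329 ± 73.2 and 557 ± 232 RPM for Myf5, 494 ± 83.4 and 329 ± 82.2 RPM for Msc, and 1.78 ± 1.92 and 11.6 ± 5.36 RPM for Mef2c (SD, n = 3 each). Per length, Myog was ahead of Myf5 in all 3 fresh MuSC libraries and in WT replicate 01, and behind it in WT replicates 02 and 03.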
